A study of Mus musculus with 4 samples.

Results

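The renin-angiotensin system and the receptors for corticosteroids were followed in glomerular RNA through 9 genes: Ren1, Agt, Agtr1a, Ace, Enpep, Mme, Nr3c1, Nr3c2 and Hsd11b2. They were found as the probe sets whose only annotated gene symbol is one of these names, which gave 15 probe sets for 8 of the 9 genes, out of 45101 probe sets and 18193 named genes on the array. No probe set was named for Ren1, so renin itself was not analysed here. Nr3c1 had 6 probe sets, Ace and Mme had 2 each, and the other 5 genes had 1 each. The brightest probe set of a gene stands for it below.

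Total RNA came from glomeruli of male mice, with 1 Affymetrix 3' expression array for each of 4 groups. The genotypes were wild type (WT) and GC-A KO (KO), which lacks guanylyl cyclase A throughout the body. This cyclase is the receptor that atrial and B-type natriuretic peptides share. Every mouse of all 4 groups had lost 1 kidney by uninephrectomy. Control mice of either genotype received a continuous subcutaneous infusion of 2% ethanol on a normal diet. ALDO mice received aldosterone by the same route on a 6% salt diet for 3 weeks. The sources used here do not give strain, age, how many mice contributed to an array or how glomeruli were isolated. Each group had a single array, so the comparisons carry no replicate error and none was tested, and precision is limited by that number.

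Renin cuts angiotensinogen, the product of Agt, to angiotensin I, which angiotensin-converting enzyme (Ace) trims to angiotensin II. Angiotensin II acts on the type 1 receptor (Agtr1a), constricts glomerular vessels and drives aldosterone release, while the membrane peptidases aminopeptidase A (Enpep) and neprilysin (Mme) break angiotensins down further; neprilysin also degrades natriuretic peptides. Aldosterone binds the mineralocorticoid receptor (Nr3c2), which also binds corticosterone. The dehydrogenase encoded by Hsd11b2 inactivates corticosterone in aldosterone target cells, and the glucocorticoid receptor (Nr3c1) is present in most cell types. Natriuretic peptides, through guanylyl cyclase A, are known to oppose renin and aldosterone release.

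The region before the start of Agt is shown because Agt had the widest spread of the 8 genes over the 4 arrays, and that of Enpep because it shares both motifs with Agt while its signal hardly differed between arrays. Both are the 250 bases before the RefSeq start site in GRCm38.p6, written 5′ to 3′ on the gene's own strand. The Agt region lies at chr8:124569707-124569956 and that of Enpep at chr3:129332750-129332999, both on the minus strand. Capitals mark TTCNNNGAA, the form bound by STAT factors, and TATAAA, found on either strand.
Agt: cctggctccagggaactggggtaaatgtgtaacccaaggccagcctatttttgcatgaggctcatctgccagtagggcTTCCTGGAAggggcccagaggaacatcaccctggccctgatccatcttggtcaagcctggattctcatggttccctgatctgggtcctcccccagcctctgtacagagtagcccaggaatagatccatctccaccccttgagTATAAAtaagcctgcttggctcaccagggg
Enpep: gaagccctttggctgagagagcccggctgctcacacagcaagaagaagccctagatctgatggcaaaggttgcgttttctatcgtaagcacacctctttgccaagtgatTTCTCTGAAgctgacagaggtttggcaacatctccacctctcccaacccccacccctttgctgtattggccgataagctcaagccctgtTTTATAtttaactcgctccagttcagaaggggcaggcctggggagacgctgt
In Agt the TATAAA run lay on the gene's strand from base -30 to base -25 before the start, and TTCNNNGAA lay from -172 to -164. In Enpep TATAAA was read on the opposite strand, from -52 to -47, and TTCNNNGAA lay from -141 to -133. Of the 9 windows listed for Ren1, Agt, Ace, Enpep, Mme and Nr3c2, 3 held TTCNNNGAA, against 7.02% of all 32851 promoter windows of the same length, and 4 held TATAAA, against 12.4%. AGAACA, the half-site of the glucocorticoid and mineralocorticoid receptors, was in 0 of the 9 windows and in 16.1% of all windows. The motifs did not overlap each other in these windows. Of the 9 windows, Mme gave 3 and Ace 2, so they are not independent, and no excess or lack of a motif is read from these counts. The matches describe letters in short windows and show no binding.

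None of the 8 genes differed by 2-fold or more in any of the 5 comparisons (KO against WT under each treatment, ALDO against control in each genotype, and the KO minus WT difference of the latter). All differences here are on the log2(intensity + 16) scale. For KO control against WT control, 6.9% of all 18193 genes were past 2-fold in either direction. The share was 7.06% for KO ALDO against WT ALDO, 5.99% for WT ALDO against WT control, 6.13% for KO ALDO against KO control and 11% for the difference of effects, so a count of 0 among 8 genes is near the background. Dim genes weigh heavily in those shares. Among the 9097 genes in the brighter 50% by mean log2 value, which hold 7 of the 8 (all but Nr3c2), the shares were 1.14%, 1.62%, 0.682%, 0.704% and 0.923% in the same order. The median spread from the lowest to the highest array was 0.37 for the 8 genes, against 0.32 for the brighter genes and 0.50 for all genes.

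**Figure D1:**
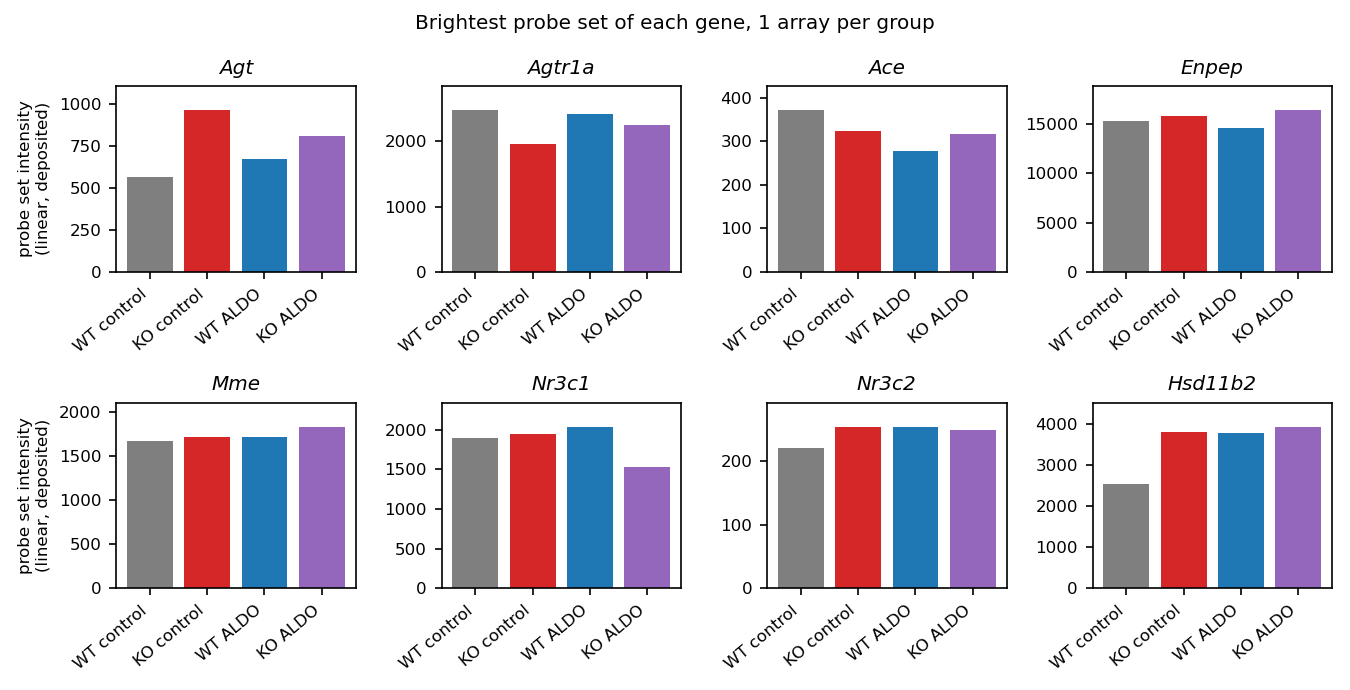
Intensity of the brightest probe set (vertical axis, linear scale from 0, as deposited) on the array of each group, with 1 panel for each of the 8 genes and 1 bar per array. Agt was highest in KO control (965), Hsd11b2 was lowest in WT control (2540), and Enpep and Mme were nearly level.

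Angiotensinogen, the substrate of the whole cascade, had intensities of 566 in WT and 965 in KO under control treatment, and of 673 in WT and 810 in KO under ALDO. Both KO arrays were thus above both WT arrays, and ALDO was above control in WT but below it in KO. Agt was higher in KO control than in WT control by 0.75, which is 1.68-fold and the largest difference of any of the 8 genes. Of the brighter genes, 2.01% were higher by as much or more in that comparison. Under ALDO the genotype difference was 0.26, a size that 20.8% of the brighter genes reached. ALDO against control was 0.24 in WT and -0.25 in KO, and the difference of these effects was -0.49. At the deposited scaling Agt was the only one of the 8 past 1.5-fold in any comparison, a threshold chosen after the data were seen; with quantile normalization Hsd11b2 also passed it in KO control against WT control, at 0.60. Of all genes, 18.3% were past that threshold in KO control against WT control, 20.4% in KO ALDO against WT ALDO, 16.2% in WT ALDO against WT control, 17.2% in KO ALDO against KO control and 23.4% in the difference of effects.

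Agt is made by proximal tubule cells as well as liver, and proximal tubule transcripts were bright in this glomerular RNA. Of 12 proximal tubule markers 11 had a probe set, with intensities from 6689 to 49489 and none near 0. Their summed intensity under control treatment was 255842 in WT and 236127 in KO, and under ALDO 240949 and 219067, so it was lower in both KO arrays, where Agt was higher. In KO control against WT control 9 of the 11 were below 0 (median -0.21), with the endocytic receptors Cubn (-0.46) and Lrp2 (-0.43) lowest. In whole glomerular preparations fewer cells of a type and less RNA per cell cannot be told apart. Markers of several cell types moved in the direction of Agt. All 10 endothelial markers were above 0 in KO control against WT control (median 0.43) and KO ALDO against WT ALDO (0.46). Bright mesangial markers were above 0 for 6 of 6 in both (0.38 and 0.45). Juxtaglomerular and smooth muscle markers were so for 9 of 9 and 7 of 9 (0.57 and 0.75), and podocyte markers for 2 of 8 and 8 of 8. The part of these cell types was not tested. Macrophage markers had the largest medians, with 7 of 7 bright members above 0 in KO control (median 1.42) and in KO ALDO (median 1.28). Among them, C1qb was in the brighter range only through its KO values (781 and 1059), against 145 in WT control and 293 in WT ALDO. These counts and medians include it. The summed intensity of the 7 bright macrophage markers was 5179 in WT and 10427 in KO under control treatment and 5175 and 11293 under ALDO. The lowest value of all 10 members on any array was 87.5. The part of macrophages in the Agt difference was not tested.

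The angiotensin II type 1 receptor, Agtr1a, had 2477 in WT and 1957 in KO under control treatment, and 2412 and 2249 under ALDO. The KO control array was the lowest and the WT arrays the highest. The difference was -0.34 between the control arrays and -0.10 between the ALDO arrays. ALDO against control was -0.04 in WT and 0.20 in KO. In the glomerulus, this receptor is known from mesangial cells and vascular smooth muscle, and markers of both were higher in KO. In KO control against WT control 6 of 6 bright mesangial markers were above 0 (median 0.38), as were 9 of 9 juxtaglomerular and vascular smooth muscle markers (median 0.57; 8 of 9 with quantile normalization or median centring), so Agtr1a differed in the opposite direction to both lists. Proximal tubule markers were lower in that comparison, as Agtr1a was (9 of 11 below 0, median -0.21). The part of these cell types in the Agtr1a values was not tested. Akr1b7, a marker of renin cells, had no named probe set.

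Ace, which makes angiotensin II, had 2 probe sets: its brighter probe set (1427034_at) had 372 in WT and 323 in KO under control treatment, and 279 and 317 under ALDO. That probe set was lowest in WT ALDO, at -0.39 against WT control, a size that 4.58% of the brighter genes reached in that direction. Its other probe set (1451911_a_at) had 255 and 275 under control treatment and 266 in both genotypes under ALDO, with 0.06 for WT ALDO against WT control. The 2 probe sets also had opposite signs between the control arrays, at -0.19 and 0.11. No direction for Ace is therefore given. The 10 markers of endothelial cells, in which Ace is best known, had a median of 0.33 for WT ALDO against WT control.

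Enpep, the podocyte and brush border peptidase that turns angiotensin II into angiotensin III, had 15380 in WT and 15818 in KO under control treatment, and 14633 and 16432 under ALDO. KO minus WT was 0.04 under control treatment, or -0.07 with each array centred on its median, and 0.17 under ALDO. The whole spread over the 4 arrays was 0.17, or 1.12-fold. Neprilysin, Mme, had 1669 in WT and 1711 in KO, and under ALDO 1716 and 1831, and a spread of 0.13, the narrowest of the 8 genes. KO ALDO was the highest array for both peptidases, except that with median centring Enpep was at -0.01 against KO control and Mme at -0.05 against WT ALDO.

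The dimmer probe set of Mme (1422975_at) had 248 in WT and 221 in KO under control treatment, and 222 and 292 under ALDO. It too was highest in KO ALDO, at 0.37 against WT ALDO and 0.38 against KO control, where the brighter probe set (1455961_at) gave 0.09 and 0.10. Podocytes and proximal tubule cells both carry these peptidases. All 8 podocyte markers with a probe set were above 0 in KO ALDO against WT ALDO, with a median of 0.15 (5 of 8 and 0.0047 with median centring), while 9 of 11 proximal tubule markers were below 0 (median -0.18).

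**Figure D2:**
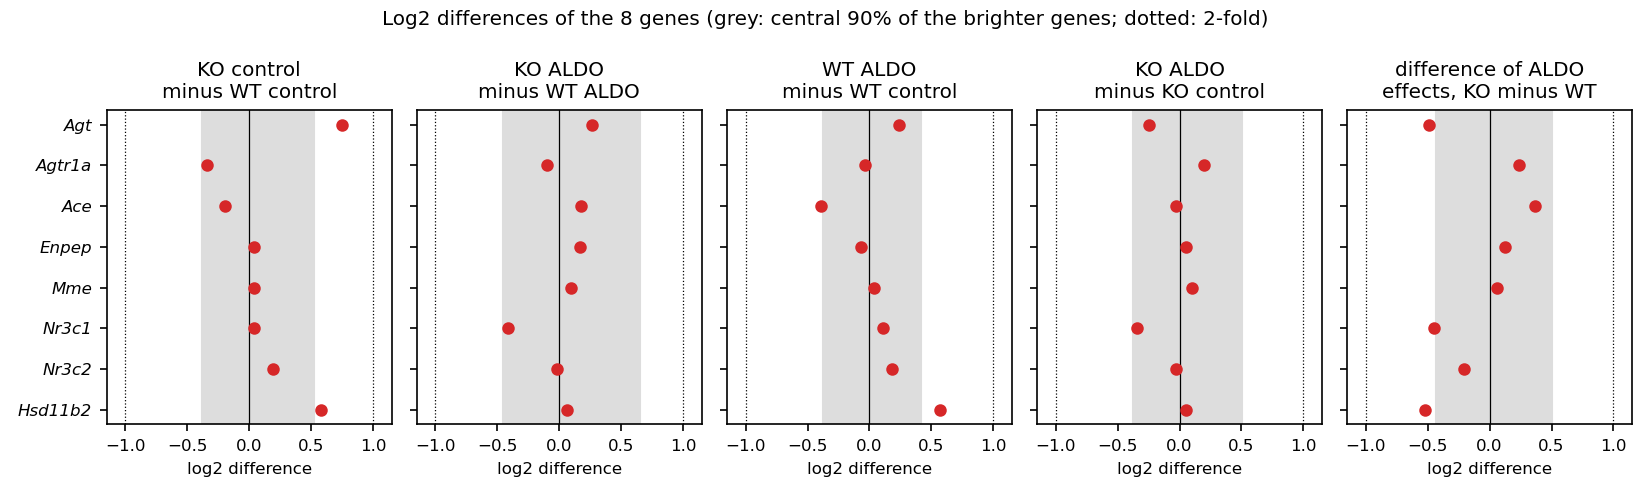
Log2 difference (horizontal axis) of each of the 8 genes in each of the 5 comparisons, 1 point per gene from 2 arrays (4 arrays in the last panel). The grey band holds the central 90% of the 9097 brighter genes and dotted lines mark 2-fold. Agt (0.75) and Hsd11b2 (0.58) lie right of the band in KO control against WT control. In WT ALDO against WT control Ace lies left and Hsd11b2 right of it, in the difference of effects Agt, Nr3c1 and Hsd11b2 lie left of it, and no point reaches 2-fold. Points are brightest probe sets, and these places of Ace and Nr3c1 depended on the probe set.

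The glucocorticoid receptor, Nr3c1, had 1891 in WT and 1941 in KO under control treatment, and 2037 and 1526 under ALDO, on its brightest probe set (1460303_at). KO ALDO was the low array and the other 3 lay close together. KO ALDO was below WT ALDO by -0.41 and below KO control by -0.34, sizes that 6.31% and 6.20% of the brighter genes reached in that direction. The control arrays differed by 0.04. ALDO against control was 0.11 in WT and the difference of effects was -0.45.

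Of the 6 Nr3c1 probe sets, 5 were lower in KO ALDO than in WT ALDO, including all 3 in the brighter range. The second brightest (1421867_at) had 1645 in WT and 1552 in KO under control treatment, and 1968 and 1504 under ALDO. It was highest in WT ALDO, and KO ALDO against WT ALDO was -0.38, but KO ALDO against KO control was only -0.04. The third (1457635_s_at) had 1045 and 928 under control treatment and 840 and 741 under ALDO (WT first), with -0.18 between the ALDO arrays and -0.31 for WT ALDO against WT control. Thus the bright probe sets had 1 sign between the ALDO arrays and mixed signs for ALDO in WT.

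The dim Nr3c1 probe sets behaved less alike. One (1421866_at) ranged from 94.3 to 108 with KO ALDO lowest. Another (1453860_s_at) had 105 in WT and 81.0 in KO, and under ALDO 82.2 and 44.7, also lowest in KO ALDO. The dimmest (1431378_at) had 17.3 in WT and 29.0 in KO, and under ALDO 28.7 and 47.4, so that it was highest in KO ALDO, at 0.50 against WT ALDO. Probe sets of a gene share the RNA of the array and say nothing about spread between mice.

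**Figure D3:**
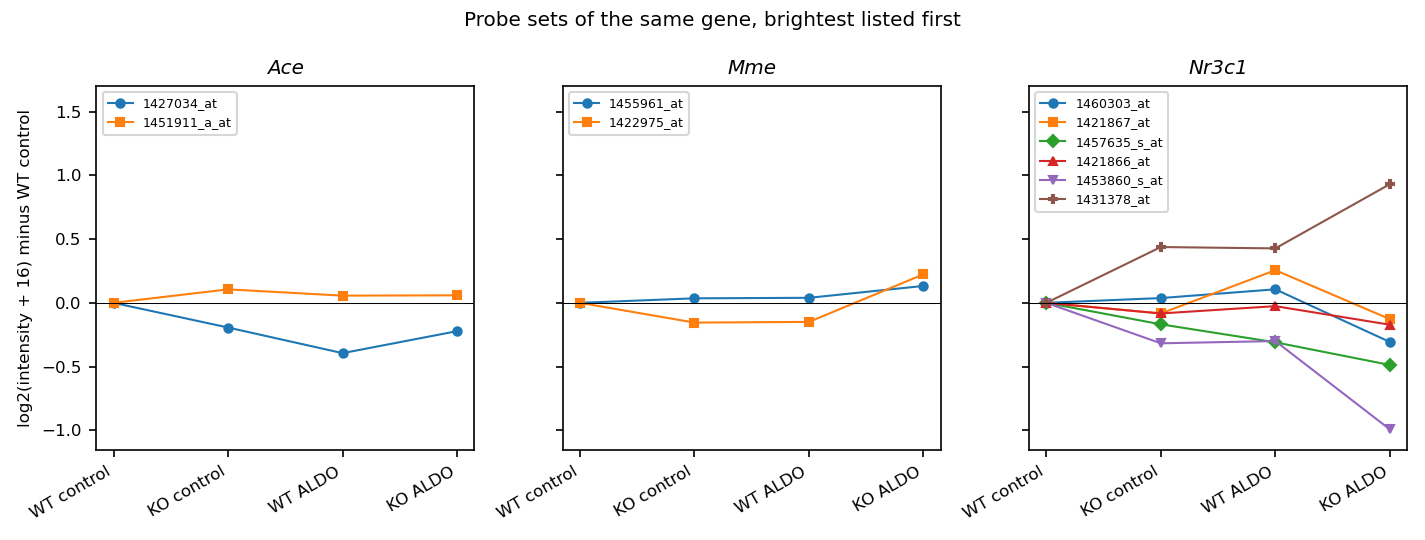
Value of each probe set of Ace (2), Mme (2) and Nr3c1 (6) on each array, as log2(intensity + 16) minus its WT control value (vertical axis), with the array on the horizontal axis and 1 line per probe set, brightest listed first. The 2 Ace probe sets lie on opposite sides of their WT control value on the other 3 arrays, and all Nr3c1 lines but that of the dimmest probe set (1431378_at) lie lower in KO ALDO than in WT ALDO.

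The mineralocorticoid receptor, Nr3c2, through which aldosterone acts, had 221 in WT and 254 in KO under control treatment, and 253 and 249 under ALDO. Its single probe set was below the limit of the brighter genes, an intensity of about 247 by mean log2 value. At the deposited scaling WT control was the low array and the other 3 were nearly level. The difference was 0.19 for KO control and 0.18 for WT ALDO, both against WT control, and -0.02 and -0.03 for KO ALDO against WT ALDO and against KO control. This order depended on the scaling. With median centring the values were 0.081, 0.15, -0.16 and -0.092 in the same order, so KO ALDO fell just below WT control. Quantile normalization gave 0.12, 0.17, -0.15 and -0.11.

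Hsd11b2, the enzyme that keeps corticosterone from the mineralocorticoid receptor, had 2540 in WT and 3800 in KO under control treatment, and 3775 and 3932 under ALDO. WT control was the low array, and the other 3 were nearly level. The difference was 0.58 for KO control against WT control and 0.57 for WT ALDO against WT control, sizes that 3.91% and 2.28% of the brighter genes reached. KO ALDO against WT ALDO was 0.06 and KO ALDO against KO control 0.05, so the difference of the ALDO effects was -0.52, the largest among the 8 genes. The first 2 comparisons share the WT control array, so they are not separate observations, and a peculiarity of that array cannot be told apart from genotype or treatment.

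Hsd11b2 belongs to the distal nephron and collecting duct, whose markers were present in this RNA. All 12 were in the brighter range, from 340 to 30615, and their summed intensity was 80634 in WT and 85023 in KO under control treatment and 87405 and 91715 under ALDO, lowest in WT control as for Hsd11b2. In WT ALDO against WT control 10 of 12 were above 0 (median 0.43), with the anion exchanger Slc4a1 (0.90) and the water channel Aqp2 (0.66) highest. In KO control against WT control 7 of 12 were above 0 with a median of 0.01. With each array centred on its median 5 of 12 were above 0 (median -0.10). Highest there were 2 subunits of the sodium channel, Scnn1g (1.21) and Scnn1b (1.20). Lowest were the water channel Aqp3 (-0.43) and the cotransporter Slc12a1 (-0.60), whose second brightest probe set gave 0.40. The part of these segments in the Hsd11b2 values was not tested.

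**Figure D4:**
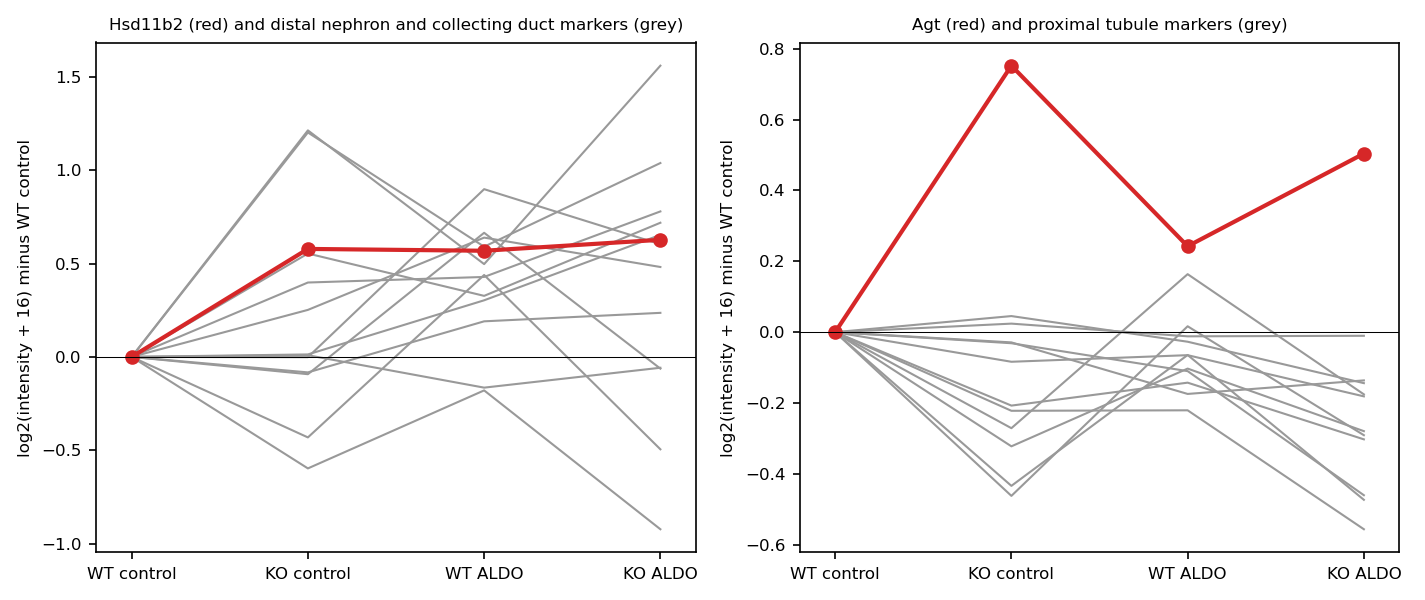
Left, Hsd11b2 (red) with 12 distal nephron and collecting duct markers (grey); right, Agt (red) with 11 proximal tubule markers (grey). The vertical axis is log2(intensity + 16) minus the WT control value, the horizontal axis the array, and each line 1 gene. Hsd11b2 lies 0.57 or more above WT control on the other 3 arrays, and Agt lies above all proximal tubule markers in KO control, WT ALDO and KO ALDO.

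Other genes of the renin-angiotensin system were read from a list of 20, of which 17 had a probe set and 10 were in the brighter range. None of the 10 was past 2-fold in any comparison of array pairs, against 0.682% to 1.62% of the brighter genes and 5.99% to 7.06% of all genes. That count is near the background. Their medians lay between -0.08 and 0.04, against -0.0020 to 0.012 for the brighter genes. In KO control against WT control the highest were Anpep (0.48, 271 to 384), the aminopeptidase that shortens angiotensin III, and Klk1 (0.35, 32138 to 40833), tissue kallikrein. The lowest was Agtrap (-0.47, 1443 to 1038), which encodes a protein that binds the type 1 receptor and promotes its internalisation. Agtrap and Agtr1a were thus both lower in KO control. Atp6ap2, the prorenin receptor, had 13632 in WT and 14353 in KO under control treatment, and 12269 and 13823 under ALDO.

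The remaining receptors were near the bottom of the scale. Agtr1b was between 5.29 and 36.1, Agtr2, the type 2 receptor, between 0.556 and 23.7, and Mas1, the receptor for a shorter angiotensin, between 2.90 and 31.3. Mast cell genes whose products can form or process angiotensin were as dim, with Cma1 between 7.24 and 24.9 and Cpa3 between 6.94 and 44.7. Differences of such values are not read here.

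Around the corticosteroid receptors, 11 of 16 listed chaperones, co-regulators and steroid-converting enzymes had a probe set, all in the brighter range. In KO control against WT control 9 of the 11 were below 0 (median -0.10). There 1 was past 2-fold, as were 1.14% of the brighter genes and 6.9% of all genes. It was Hsd11b1, the enzyme that regenerates active corticosterone and so works against Hsd11b2. Its intensity was 2031 in WT and 1001 in KO under control treatment, and 1764 and 1519 under ALDO. KO control was the low array, at -1.01 against WT control, while Hsd11b2 differed there by 0.58 in the other direction. Proximal tubule markers were also lower in that comparison (9 of 11 below 0 and 2 above, median -0.21). A link between the 2 enzymes, or a part of cell types in either value, was not tested. With a pseudocount of 64 the Hsd11b1 value was -0.98 and with quantile normalization -0.99, just inside 2-fold. Under ALDO the genotype difference of Hsd11b1 was -0.21, and KO ALDO against KO control was 0.59.

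The next lowest in KO control was the co-chaperone Stip1 (-0.43), while Fkbp5 was highest (0.54). Under ALDO 8 of the 11 were lower in KO than in WT (median -0.20; -0.12 with quantile normalization, and 11 of 11 with a median of -0.35 with median centring), the lowest being Fkbp4 (-0.38), a co-chaperone that moves the receptor to the nucleus, and Nedd4l (-0.38), the ubiquitin ligase that removes the sodium channel. The second brightest probe set of Fkbp4 gave 0.51, so its direction depended on the probe set.

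Genes known to respond to corticosteroids were above 0 in WT ALDO against WT control for 16 of 16 members, with a median of 0.39 against 0.01 for the brighter genes. Pdk4 (1.09, 428 to 927), a brake on glucose oxidation, and Fkbp5 (0.71, 1361 to 2240), a feedback inhibitor of the receptors, were highest, and only Pdk4 was past 2-fold. In KO ALDO against KO control 14 of 16 were above 0 (median 0.27) with none past 2-fold. In KO control against WT control 11 of 16 were above 0 (median 0.51), led by the cell cycle inhibitor Cdkn1a (1.38, 203 to 554), whose second brightest probe set gave 0.45. In KO ALDO against WT ALDO 11 of 16 were above 0 (median 0.29), with Cdkn1a (1.72), Scnn1a (1.10) and Cebpd (1.06) past 2-fold higher and Pdk4 (-1.02) past 2-fold lower. Pdk4 was -0.95 with a pseudocount of 64 and Scnn1a 0.96 with median centring, both just inside 2-fold. Of the brighter genes 1.62% were past 2-fold in KO ALDO against WT ALDO, 0.682% in WT ALDO against WT control and 0.704% in KO ALDO against KO control. The shares of all genes were 7.06%, 5.99% and 6.13%. Cdkn1a and Cebpd were in the brighter range only through their KO values. In WT control they had 203 and 186, below the limit of about 247, so the brighter shares are no like background for them. Cell type markers also stood above 0 in WT ALDO against WT control: 9 of 9 juxtaglomerular and smooth muscle markers (median 0.51), 9 of 10 endothelial markers (0.33) and 10 of 12 distal nephron markers (0.43). Their part in the values of the response genes was not tested. The list was chosen with earlier results of these arrays known, and its direction is no independent evidence.

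Fkbp5 was lowest in WT control, as Hsd11b2 was, with 1361 there and 1988 in KO control, and 2240 (WT) and 2322 (KO) under ALDO. The Fkbp5 difference between the control arrays was 0.54, or 0.03 with the mean of all its probe sets, so that value rests on 1 probe set.

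**Figure D5:**
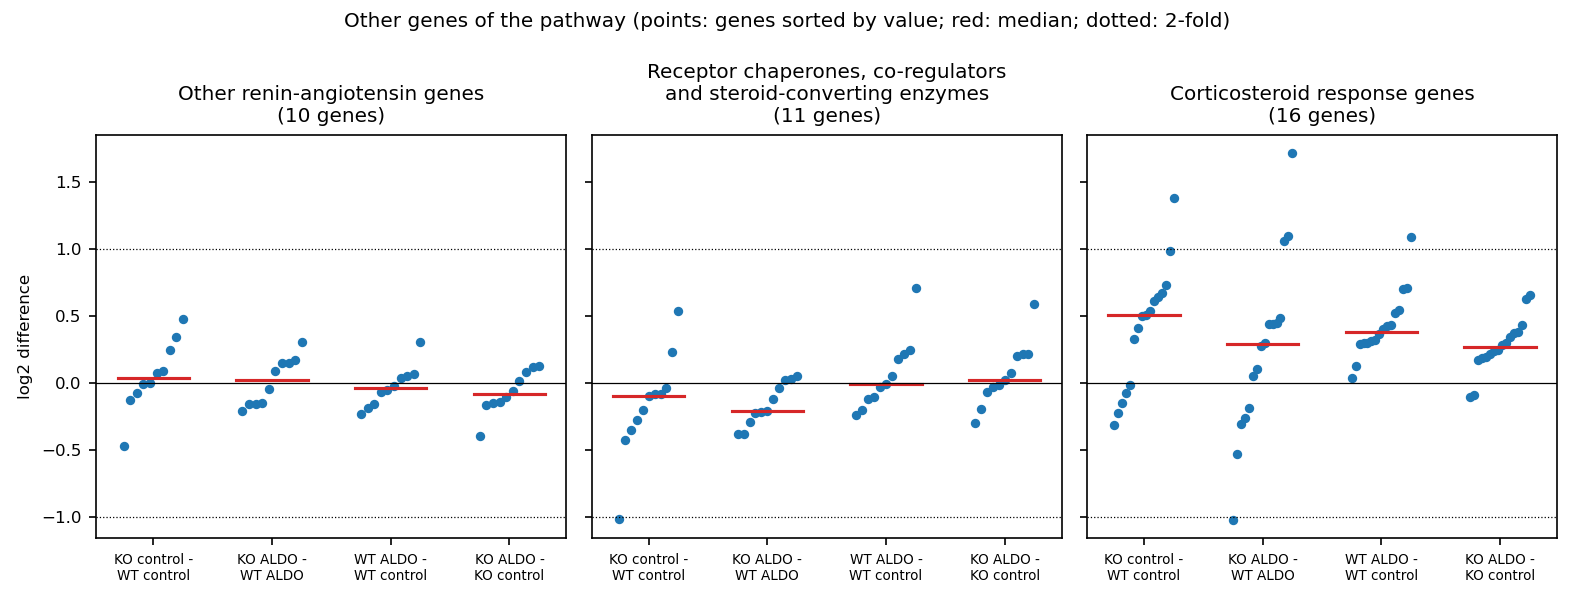
Log2 differences (vertical axis) of the other renin-angiotensin genes (10), the receptor chaperones, co-regulators and steroid-converting enzymes (11) and the corticosteroid response genes (16) in the 4 comparisons of array pairs (horizontal axis). Each point is 1 gene, red lines are medians and dotted lines mark 2-fold. The renin-angiotensin medians stay between -0.08 and 0.04, and all 16 response genes lie above 0 in WT ALDO against WT control.

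The genes whose pattern over the 4 arrays was most like that of a member were found by the root mean square difference of log2 profiles, each centred on its own mean. For Agt they were Oasl2, an interferon-stimulated gene (0.02; intensities of 186 in WT and 334 in KO, and under ALDO 226 and 282), Cnksr1 and Sv2a. For Hsd11b2 they were the transcription factor Cebpa (0.03; 302 in WT and 451 in KO, and under ALDO 436 and 478), Rgl3 and Rps6kb2. For Nr3c1 they were the mitochondrial transporter Abcb8 (0.01; 384 in WT and 392 in KO, and under ALDO 412 and 309), Tsr3 and Abcc5. The nearest to Agtr1a was the kinase Srpk1, to Ace Cfap69, to Enpep the respiratory chain gene Ndufa7 and to Mme Lhx1. The likeness is over 4 arrays and 9097 genes and is a description only.

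Facts of the arrays that touch these values were as follows. Podocyte markers, which define glomerular RNA, were bright (8 of 10 with a probe set, 736 to 10271), and so were tubule markers. Npr1, the gene of guanylyl cyclase A, was dim, with 92.6 in WT and 108 in KO under control treatment and 60.5 and 23.4 under ALDO. Where its probe set lies relative to the deletion is not known here, so it does not check the genotype labels. Signal at the 3' end over that at the 5' end was 0.741 to 0.785 for Gapdh and 1.61 to 1.87 for beta-actin, and both ratios were lower on the KO arrays than on the WT arrays. Their part in the genotype differences was not tested. Array medians ran from 89.5 to 103, lowest in WT control and highest in KO ALDO.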

How the data were processed

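The members and gene lists were chosen with earlier results of these data known. Per the submitters' processing notes, the authors used Affymetrix Expression Console; its algorithm, version and detection calls were not stated. The deposited values are probe set intensities on a linear scale. Every array had a trimmed mean (2% off each end) of 500.003, so a common scaling preceded deposit, and a shift shared by all genes would not show. Intensities were transformed here as log2(intensity + 16), which understates the change of dim genes. By the platform's annotation, 34945 probe sets carried 1 symbol and were used, 932 carried several and 9211 had no entry; 13 Affymetrix controls with 1 symbol made up the rest of the 45101 and were left out. The probe set with the highest mean log2 value stood for its gene. The 9097 genes in the brighter 50% (log2 value of 8.04 or more) gave the background and the list counts. Named list genes were up to 2 of the highest and 2 of the lowest in a comparison, and other list genes are named as receptors or enzymes of the system after their values were seen. Likeness named 3 genes per member. A member was set aside for a closer look if its ALDO effects in WT and KO had opposite signs and were each at least 0.25, which 0 members met. There were no replicates, so no p-value was computed. Promoter sequences came from RefSeq (GRCm38.p6) for 6 of the 9 genes. Counting steps were tested on simulated data. Python 3.11.15, pandas 2.3.3 and numpy 2.4.6 were used.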

Additional observations from a re-analysis of the deposited data

How the results depend on the processing

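The count of the 8 genes at 2-fold or more was 0 in all 5 comparisons with pseudocounts of 1 and 64, quantile normalization, median centring, the mean of all probe sets, the second brightest probe set (3 genes) and the brighter 50% only (7 genes). With a call at 1.5-fold, added after the data were seen, it was 1 for KO control against WT control and 0 for the other comparisons, at the deposited scaling. Of 40 single differences of the 8 genes, 29 kept their sign under every alternative run for them. Of the 16 with a size of 0.2 or more, 14 did, and the exceptions were both of Ace, at 0.06 for WT ALDO against WT control and -0.10 for the difference of effects with the second brightest probe set. The 5 genes with 1 probe set have no second one, and the mean of all probe sets equals their main value. Choice of probe set therefore could not be checked for them, and these counts say nothing about it there. Across alternatives Agt in KO control against WT control ranged from 0.64 to 0.77, Hsd11b2 from 0.47 to 0.60, and Nr3c1 in KO ALDO against WT ALDO from -0.56 to -0.22. Median centring shifted the median of the brighter genes to -0.11 and -0.13 in KO against WT under control and ALDO, and the lowest Agt and Hsd11b2 values came from it. Among the marker genes, Acta2 in KO ALDO against KO control was 1.19 and reversed to -0.13 with its second brightest probe set. The lack of replicate arrays limits all values, and Nr3c2 also lies below the limit of the brighter genes. No paired analysis was possible because each group has 1 array.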
